A study of Mus musculus with 9 samples.

Results

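Intratumoral CD8 T cells that carried PD-1 were compared by how much α2,6-linked sialoglycan they displayed. The 6 libraries described here, of 9 in all, were taken by their sort labels: 3 libraries of PD-1-positive cells low in α2,6-sialoglycan (SiaLo_PD1pos) and 3 of PD-1-positive cells high in it (SiaHi_PD1pos). The remaining 3 libraries held PD-1-negative cells high in the glycan (SiaHi_PD1neg) and serve below as a further reference. Polyadenylated RNA was read as 150 bp pairs from cells sorted out of syngeneic melanomas, which the sample labels call B16-OVA and the series text B16F10. The labels call all 3 groups WT and untreated, and they give no age, sex or strain for the mice. The labels do not tie a replicate to an animal or tumour, so a p-value here covers library-to-library variation that may be technical. The 6 libraries held 11396686 to 15030442 reads assigned to genes. The account below is of genes outside the usual T cell lists, and of how much RNA of other cells each library held.

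Sialic acid in α2,6 linkage caps N-glycans and is added mainly by the enzyme ST6GAL1 in the Golgi. T cells change this cap with activation and differentiation. PD-1-positive CD8 T cells in a tumour range from stem-like cells, which keep memory programmes and can renew themselves, to effector-like and exhausted cells. A sorted T cell library can also hold transcripts of the cells that surrounded the T cells. In bulk RNA, fewer cells of a type and less RNA per cell cannot be told apart.

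The sort was first set beside the transcripts of PD-1 and of ST6GAL1, which adds the sorted glycan and is not itself a sorted protein. St6gal1 was at 12.5, 7.08 and 17.5 CPM in SiaLo_PD1pos, against 55.8, 63.5 and 72.2 CPM in SiaHi_PD1pos, without overlap (log2 fold change -2.38, SE 0.25, adjusted p = 0.000254). SiaHi_PD1neg held 103, 105 and 87 CPM. Pdcd1, which encodes PD-1, was at 1105, 1097 and 1163 CPM in SiaLo_PD1pos, against 892, 864 and 939 CPM in SiaHi_PD1pos. These libraries did not overlap, but the difference did not pass the test (adjusted p = 0.819). SiaHi_PD1neg held 77.5, 36.1 and 51.3 CPM of Pdcd1. Levels are given as TMM-scaled CPM, and tests are edgeR's quasi-likelihood F test with Benjamini-Hochberg adjustment over 15292 tested genes. The T cell label held in the PD-1-positive libraries: the summed level of 10 T cell core genes, such as Cd3e, Lck and Cd8a, was 6370.2 to 7166 CPM in SiaLo_PD1pos, against 5645 to 7316 CPM in SiaHi_PD1pos. The same sum was 1689, 1753 and 1610.1 CPM in SiaHi_PD1neg, where Cd4 stood at 264 to 412 CPM. Those libraries were above every PD-1-positive library in all other-cell marker lists except keratinocyte and erythroid and platelet. They stand apart as T cell libraries, and levels in them are given beside the others for that reason. Among the PD-1-positive libraries, replicate 2 of SiaHi_PD1pos was the richest in MHC class II, macrophage and natural killer cell RNA, and replicate 3 of SiaLo_PD1pos the richest in melanoma RNA; results that change without them are given both ways.

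**Figure D1:**
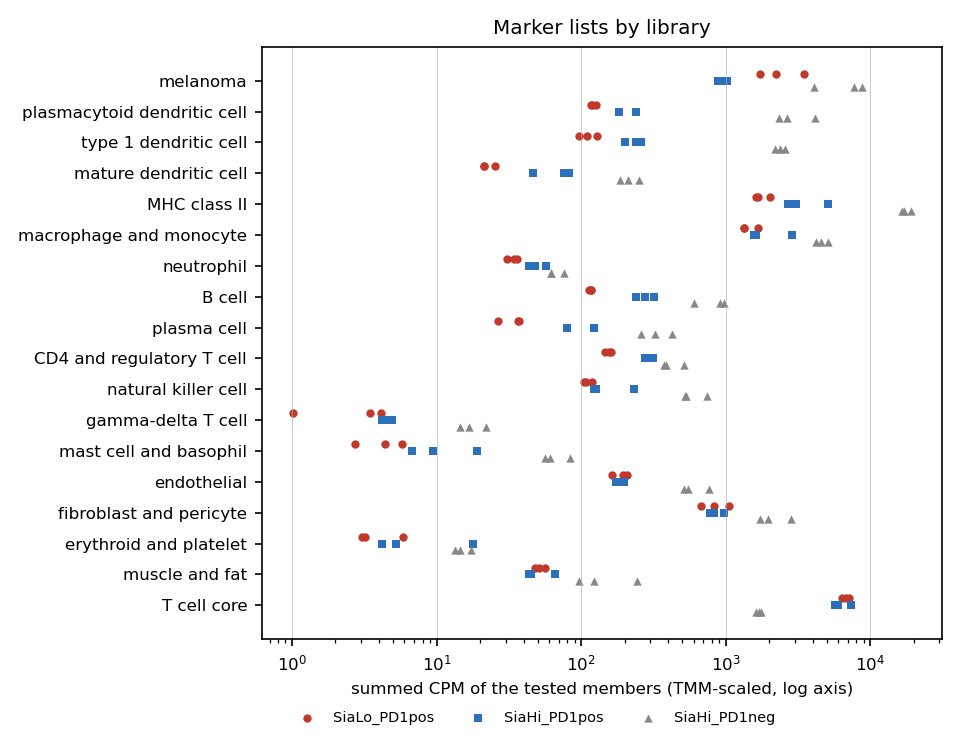
Summed CPM (TMM-scaled, log axis) of the tested members of the 17 marker lists with at least 3 tested members and of the T cell core list, 1 point per library, with SiaLo_PD1pos as circles, SiaHi_PD1pos as squares and SiaHi_PD1neg as triangles. Melanoma marker sums were higher in all 3 SiaLo_PD1pos libraries than in all 3 SiaHi_PD1pos libraries, and the dendritic cell, MHC class II, B cell, plasma cell and CD4 lists were lower in all 3.

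RNA of other cells differed between the PD-1-positive groups in both directions. Melanoma markers, the pigment and melanocyte lineage genes, summed to 2212, 1719 and 3455 CPM in SiaLo_PD1pos, against 949.9, 889 and 1025 CPM in SiaHi_PD1pos, without overlap, and to 8717, 4089 and 7689 CPM in SiaHi_PD1neg. Of 14 melanoma genes, 3 rose (Tyr, Tyrp1 and Dct, the enzymes of melanin synthesis) and 11 did not pass, and all 14 had a positive log2 fold change (median 1.29, beside a median of -0.01 over all tested genes). Tyrp1 was at 737, 606 and 1172 CPM in SiaLo_PD1pos, against 313, 297 and 328 CPM in SiaHi_PD1pos (log2 fold change 1.42, SE 0.26, adjusted p = 0.0144). Melanoma calls numbered 0 without SiaHi_PD1pos replicate 1 or 2, 2 without SiaLo_PD1pos replicate 3 or SiaHi_PD1pos replicate 3, 6 without SiaLo_PD1pos replicate 2 and 8 without SiaHi_PD1neg replicate 2. They also numbered 0 when libraries were scaled on the T cell core genes (all 14 were at an unadjusted p under 0.05 in the fit on all 9 libraries, DESeq2 called 10 and limma-voom 7). Of all tested genes edgeR called 0.268% higher, 1.13% lower and 1.4% in both directions. DESeq2 called 0.824% higher, 2.22% lower and 3.05% in both directions, and limma-voom 3.46%, 4.79% and 8.25%. At an unadjusted p under 0.05 in edgeR, 505 of 15292 tested genes were higher and 819 lower. The call of Tyrp1 ended without SiaHi_PD1pos replicate 1 or 2 (adjusted p up to 0.0971).

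Antigen-presenting cell transcripts moved the other way. Calls of lower genes in the lists below stand beside 1.13% called lower over all tested genes. MHC class II genes summed to 2029.7, 1620.4 and 1677 CPM in SiaLo_PD1pos, against 2706, 5126 and 3072 CPM in SiaHi_PD1pos, and 9 of 10 fell. Replicate 2 of SiaHi_PD1pos was the highest of the 6. The invariant chain gene Cd74 was at 780.2, 597 and 675 CPM in SiaLo_PD1pos, against 1025, 1925 and 1182 CPM in SiaHi_PD1pos (log2 fold change -1.01, SE 0.21, adjusted p = 0.0269). Its call ended without any SiaLo_PD1pos replicate or SiaHi_PD1neg replicate 1 or 3 (adjusted p up to 0.144) and when the 6 libraries were fitted alone (0.0611). H2-Ob, a subunit of the class II loading inhibitor, was at 5.16, 3.11 and 2.08 CPM in SiaLo_PD1pos, against 12.4, 15.4 and 10.7 CPM in SiaHi_PD1pos (adjusted p = 0.00387). Type 1 dendritic cell markers summed to 128, 95.9 and 110.0 CPM in SiaLo_PD1pos, against 201, 258 and 238 CPM in SiaHi_PD1pos, with 5 of 10 lower. Of these, Wdfy4, which type 1 dendritic cells need for cross-presentation, was at 11.6, 10.04 and 10.5 CPM in SiaLo_PD1pos, against 37.4, 33.1 and 46.3 CPM in SiaHi_PD1pos (log2 fold change -1.86, SE 0.16, adjusted p = 4.38e-05). Naaa, a lysosomal amide hydrolase, was at 48.2, 41.1 and 34.7 CPM in SiaLo_PD1pos, against 75.3, 119 and 84.7 CPM in SiaHi_PD1pos (adjusted p = 0.00556). In both genes every SiaLo_PD1pos library lay below every SiaHi_PD1pos library. Plasmacytoid dendritic cell markers summed to 127, 119 and 117 CPM in SiaLo_PD1pos, against 183, 239 and 183 CPM in SiaHi_PD1pos, with 3 of 10 lower. Their lectin Siglech was at 3.49, 2.31 and 2.08 CPM in SiaLo_PD1pos, against 11.6, 20.2 and 13.2 CPM in SiaHi_PD1pos (adjusted p = 0.0014), while Pacsin1, which T cells also transcribe, averaged 50.3 CPM in SiaLo_PD1pos and 68 CPM in SiaHi_PD1pos and did not pass (adjusted p = 0.43). Mature dendritic cell markers summed to 21.2 to 25.3 CPM in SiaLo_PD1pos, against 46.6 to 82.2 CPM in SiaHi_PD1pos, with 3 of 7 lower. They included the chemokine Ccl22, at 2.55, 1.44 and 1.47 CPM in SiaLo_PD1pos, against 14.7, 17.1 and 20.2 CPM in SiaHi_PD1pos (adjusted p = 2.56e-05), while Fscn1, the actin bundler fascin, averaged 11.5 CPM in SiaLo_PD1pos and 24.1 CPM in SiaHi_PD1pos and did not pass (adjusted p = 0.17). MHC class II calls numbered 6, 3 and 4 without SiaLo_PD1pos replicate 1, 2 and 3, 6 without SiaHi_PD1neg replicate 1 or 3, and 5 in the fit of only the 6 libraries. Mature dendritic cell calls numbered 1 without SiaLo_PD1pos replicate 2 and 2 without SiaLo_PD1pos replicate 1 or 3 or SiaHi_PD1pos replicate 3.

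Markers of lymphocytes other than CD8 T cells were lower as well, beside 1.13% called lower over all tested genes. B cell markers summed to 113 to 117 CPM in SiaLo_PD1pos, against 239 to 321 CPM in SiaHi_PD1pos, and 1 of 9 fell: Ighm, the IgM heavy chain, at 104, 104 and 103 CPM in SiaLo_PD1pos, against 217, 297 and 252 CPM in SiaHi_PD1pos (adjusted p = 0.00288). Of 8 plasma cell genes 5 fell, among them Igkc, the kappa light chain, at 18.2, 15.7 and 23.4 CPM in SiaLo_PD1pos, against 49.3, 68.1 and 76.8 CPM in SiaHi_PD1pos (adjusted p = 0.00157). Of the plasma cell genes, 2 were called without SiaLo_PD1pos replicate 1 or 2 or SiaHi_PD1pos replicate 2 or 3, and 3 without SiaLo_PD1pos replicate 3. Of 8 CD4 and regulatory T cell genes 4 fell, including Cd4 at 6.3, 3.39 and 2.85 CPM in SiaLo_PD1pos, against 26.1, 40.4 and 32.3 CPM in SiaHi_PD1pos (adjusted p = 0.00011), and 2 did so without SiaLo_PD1pos replicate 1 or 3 or SiaHi_PD1pos replicate 1 or 3. Foxp3, the regulatory T cell transcription factor, was named after its values were seen. It was at 1.41, 2.09 and 2.51 CPM in SiaLo_PD1pos, against 17.7, 19.1 and 23.5 CPM in SiaHi_PD1pos (log2 fold change -3.33, adjusted p = 0.00023). SiaHi_PD1neg held 11.3, 8.87 and 6.19 CPM of Foxp3. Il2ra, the interleukin-2 receptor α chain, was at 63.8, 82.1 and 79.9 CPM in SiaLo_PD1pos, against 129.7, 119 and 138 CPM in SiaHi_PD1pos. Its call (adjusted p = 0.013) ended without SiaLo_PD1pos replicate 1 or 3 or SiaHi_PD1pos replicate 1 or 3 (up to 0.101). In SiaHi_PD1neg Il2ra was lowest, at 21.6, 21.7 and 22.5 CPM, while Cd4 averaged 320 CPM there. Zbtb7b, also of that list, averaged 29.6 CPM in SiaLo_PD1pos and 35.1 CPM in SiaHi_PD1pos and did not pass (adjusted p = 0.83). Of 7 natural killer cell genes Klrb1b fell, at 3.15, 1.59 and 2.51 CPM in SiaLo_PD1pos, against 6.06, 10.3 and 8.73 CPM in SiaHi_PD1pos (adjusted p = 0.0375), and its call ended without any SiaLo_PD1pos replicate, SiaHi_PD1pos replicate 2 or 3 or SiaHi_PD1neg replicate 2 (up to 0.171). Fcer1g, a signalling chain of that list, averaged 72.9 CPM in SiaLo_PD1pos and 89.4 CPM in SiaHi_PD1pos and did not pass (adjusted p = 0.897).

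Stromal lists overlapped between the groups, and macrophage markers overlapped too. Macrophage and monocyte markers summed to 1664, 1329 and 1341 CPM in SiaLo_PD1pos, against 1563, 2863 and 1622 CPM in SiaHi_PD1pos, with overlap. Of these 21 markers 2 fell, Mgl2 and F13a1, beside 1.13% of all tested genes. Mgl2 kept its call without any single library. Mgl2, a galactose-binding lectin of macrophages and some dendritic cells, was at 1.68, 1.3 and 1.47 CPM in SiaLo_PD1pos, against 7.86, 15.7 and 11.3 CPM in SiaHi_PD1pos (adjusted p = 0.00134), while Apoe averaged 411 CPM in SiaLo_PD1pos and 485 CPM in SiaHi_PD1pos (adjusted p = 0.95). Fibroblast and pericyte sums were 674 to 1054 CPM in SiaLo_PD1pos, against 773 to 969 CPM in SiaHi_PD1pos, and endothelial sums were 163 to 209 CPM in SiaLo_PD1pos, against 175 to 198 CPM in SiaHi_PD1pos. Neutrophil sums were 30.7 to 36.1 CPM in SiaLo_PD1pos, against 43.6 to 56.7 CPM in SiaHi_PD1pos, and mast cell and basophil sums 2.74 to 5.79 CPM in SiaLo_PD1pos, against 6.77 to 19.1 CPM in SiaHi_PD1pos, both without overlap. The lists of neutrophil, gamma-delta T cell, mast cell, endothelial, fibroblast, keratinocyte, muscle and fat, and erythroid and platelet genes had 0 calls in edgeR. At an unadjusted p under 0.05, 2 neutrophil, 1 mast cell and 1 erythroid and platelet gene were lower and 1 muscle gene was higher. Over all 15292 tested genes 819 were lower and 505 higher at that threshold. DESeq2 called 1 mast cell gene lower and no other gene of these lists. The limma-voom fit called 2 neutrophil, 1 gamma-delta T cell, 1 mast cell and 1 endothelial gene lower and 1 fibroblast and 1 erythroid and platelet gene higher. Of their leading members, the neutrophil decoy receptor Il1r2 averaged 9.02 CPM in SiaLo_PD1pos and 17.2 CPM in SiaHi_PD1pos (adjusted p = 0.175). The mast cell receptor Kit averaged 3.48 CPM in SiaLo_PD1pos and 8.98 CPM in SiaHi_PD1pos (adjusted p = 0.0825). The endothelial adhesion gene Pecam1 averaged 61.9 CPM in SiaLo_PD1pos and 76.8 CPM in SiaHi_PD1pos (adjusted p = 0.58), and the collagen Col3a1 209 CPM in SiaLo_PD1pos and 233 CPM in SiaHi_PD1pos (adjusted p = 0.9995). The platelet chemokine Pf4 averaged 2.71 CPM in SiaLo_PD1pos and 7.46 CPM in SiaHi_PD1pos (adjusted p = 0.374). What part these differences in marker RNA had in the gene results below was not tested; SiaHi_PD1neg levels or ratios to marker RNA are given with most of the genes described.

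Of 15292 tested genes, 41 were higher in SiaLo_PD1pos (0.268%) and 173 lower (1.13%), 1.4% in both directions. Outside the T cell and marker lists, 12136 genes were tested, of which 25 were higher (0.206%) and 80 lower (0.659%). The other calls were 10 higher and 64 lower of 622 usual T cell genes, 3 higher and 19 lower of 129 marker genes that are not also usual T cell genes, and 3 higher and 10 lower of 2405 gene models, segments, ribosomal and mitochondrial genes in no list. In each of the 105 called genes outside the lists the 3 libraries of one group lay apart from the 3 of the other. SiaLo_PD1pos libraries varied less among themselves than SiaHi_PD1pos libraries, with a biological coefficient of variation of 0.132 against 0.287, and 0.490 in SiaHi_PD1neg. Without SiaHi_PD1pos replicate 2 the counts outside the lists were 18 higher and 74 lower, of which 13 and 57 were among the genes above. A fit of only the 6 libraries gave 44 higher and 74 lower (22 and 56 shared); over all genes it called 0.502% higher, 1.1% lower and 1.6% in both directions. Higher calls outside the lists numbered 9 without SiaLo_PD1pos replicate 1, 6 without SiaLo_PD1pos replicate 3, 10 without SiaHi_PD1pos replicate 1, 8 without SiaHi_PD1pos replicate 3 and 43 without SiaHi_PD1neg replicate 2. Lower calls numbered 39, 29 and 36 without SiaLo_PD1pos replicate 1, 2 and 3, and 46 without SiaHi_PD1pos replicate 3. Scaling on the T cell core genes moved the median log2 fold change of all tested genes to -0.12 and left 8 of the 25 higher and 74 of the 80 lower calls, with 111 lower calls in all.

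**Figure D2:**
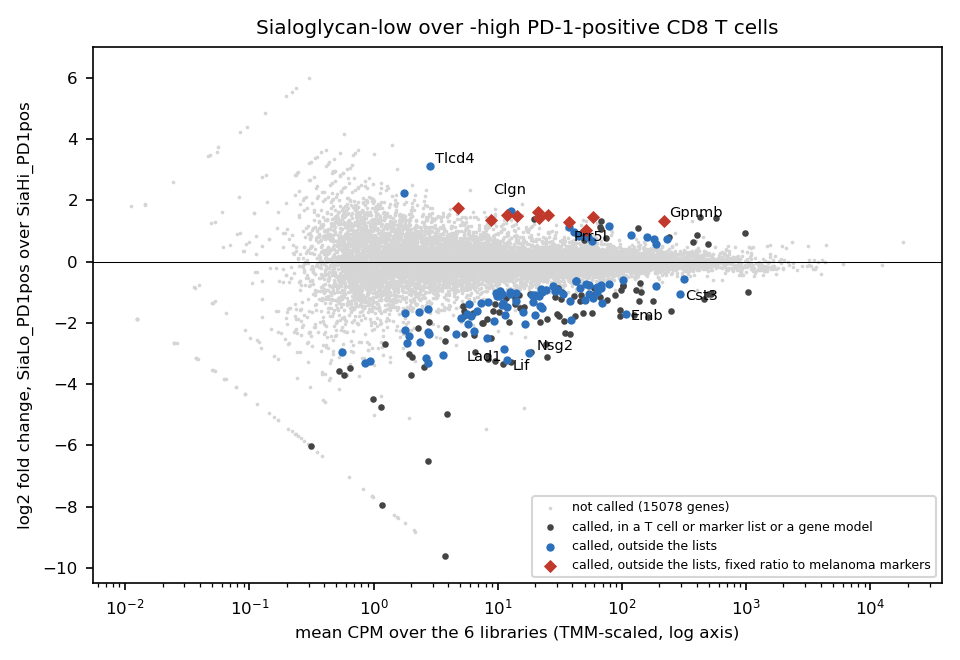
Log2 fold change of SiaLo_PD1pos over SiaHi_PD1pos for each tested gene against its mean CPM over the 6 libraries (log axis), with called genes outside the T cell and marker lists in blue and red. Red diamonds are the 11 higher genes that kept a fixed ratio to melanoma marker RNA, and more called genes lie below the zero line than above it.

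Among the 25 genes that rose, 11 tracked the melanoma markers across the whole series. For each gene its mean CPM was divided by the summed melanoma marker CPM in each of the 3 groups. In 11 genes the highest of the 3 ratios was within 1.5 times the lowest (1.04 to 1.39 times), although the melanoma sum itself was 2.58 times as high in SiaLo_PD1pos and 7.16 times as high in SiaHi_PD1neg as in SiaHi_PD1pos. Of all 9888 genes of at least 5 CPM outside the marker lists, 84 (0.850%) met the same limit. A gene in a fixed ratio to melanoma RNA has to be higher in SiaLo_PD1pos, so the group was defined by these values and carries no test. Those described below are Gpnmb, Fkbp9, Eps8, Cpe, Gsta4, Tspan10, Nrcam, Scn8a, Enpp5 and Syt4.

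Gpnmb, a transmembrane glycoprotein of melanosomes and of macrophage lysosomes, was at 279.9, 216 and 443 CPM in SiaLo_PD1pos, against 124, 116 and 131 CPM in SiaHi_PD1pos (log2 fold change 1.34, SE 0.26, adjusted p = 0.0216). SiaHi_PD1neg held 973, 512 and 920.2 CPM. Per 1000 CPM of melanoma markers it stood at 127 in SiaLo_PD1pos, 129.7 in SiaHi_PD1pos and 117 in SiaHi_PD1neg. Its highest value among the PD-1-positive libraries was in SiaLo_PD1pos replicate 3, the library with the highest melanoma sum of the 6. The same library was the highest for Syt4, a synaptotagmin of vesicle traffic, at 81.8, 57.3 and 119 CPM in SiaLo_PD1pos, against 34.7, 28.6 and 31.3 CPM in SiaHi_PD1pos (log2 fold change 1.45, SE 0.29, adjusted p = 0.0242). Per 1000 CPM of melanoma markers Syt4 was at 34.9 in SiaLo_PD1pos, 33 in SiaHi_PD1pos and 34.2 in SiaHi_PD1neg. Fkbp9, a peptidyl-prolyl isomerase of the endoplasmic reticulum, was at 47.1, 40.7 and 72.7 CPM in SiaLo_PD1pos, against 23, 23.8 and 18.5 CPM in SiaHi_PD1pos (log2 fold change 1.30, SE 0.23, adjusted p = 0.0133). SiaHi_PD1neg held 173, 107 and 151 CPM, above every PD-1-positive library. Cpe, carboxypeptidase E, which trims peptide hormones, was at 33, 19.8 and 41.1 CPM in SiaLo_PD1pos, against 14.4, 13.4 and 7.4 CPM in SiaHi_PD1pos (log2 fold change 1.41, SE 0.31, adjusted p = 0.042). Its ratio of group means was 12.7 in SiaLo_PD1pos, 12.3 in SiaHi_PD1pos and 12.7 in SiaHi_PD1neg, and it ran from 7.22 to 15.2 over the SiaHi_PD1pos libraries.

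Products known best from neurons were among the same genes. Nrcam, a neuronal cell adhesion molecule, was at 29.6, 19.9 and 46.2 CPM in SiaLo_PD1pos, against 10.6, 7.4 and 13 CPM in SiaHi_PD1pos (log2 fold change 1.62, SE 0.32, adjusted p = 0.0226). Scn8a, a voltage-gated sodium channel, was at 6.91, 5.27 and 9.86 CPM in SiaLo_PD1pos, against 3.22, 1.73 and 1.57 CPM in SiaHi_PD1pos (log2 fold change 1.75, SE 0.38, adjusted p = 0.0385). The SiaLo_PD1pos libraries lay above the SiaHi_PD1pos libraries in both genes. Gsta4, a glutathione transferase that clears products of lipid peroxidation, was at 19.98, 17.9 and 25.3 CPM in SiaLo_PD1pos, against 8.68, 9.92 and 4.09 CPM in SiaHi_PD1pos (log2 fold change 1.48, SE 0.32, adjusted p = 0.0403). Enpp5, of the ectonucleotide pyrophosphatase family, was at 11.5, 10.8 and 15.9 CPM in SiaLo_PD1pos, against 5.39, 4.09 and 5.43 CPM in SiaHi_PD1pos (log2 fold change 1.35, SE 0.24, adjusted p = 0.0133). Eps8, an actin regulator downstream of growth factor receptors and named here after its values were seen, was at 61.6, 56.4 and 91.2 CPM in SiaLo_PD1pos, against 33.1, 33.3 and 35.1 CPM in SiaHi_PD1pos (adjusted p = 0.0198). The calls of these genes depended on single libraries, most often SiaLo_PD1pos replicate 3. The call ended for Gpnmb without SiaLo_PD1pos replicate 3 or any SiaHi_PD1pos replicate (adjusted p up to 0.099). That of Syt4 ended without SiaLo_PD1pos replicate 1 or 3 or any SiaHi_PD1pos replicate (up to 0.099). That of Fkbp9 ended without SiaHi_PD1pos replicate 3 (up to 0.0588). That of Enpp5 ended without SiaLo_PD1pos replicate 3 (up to 0.0823). That of Nrcam ended without SiaLo_PD1pos replicate 3 or SiaHi_PD1pos replicate 1 or 2 (up to 0.09). That of Eps8 ended without SiaLo_PD1pos replicate 3 or SiaHi_PD1pos replicate 1 or 3 (up to 0.0826). That of Cpe ended without SiaLo_PD1pos replicate 1 or 3, any SiaHi_PD1pos replicate or SiaHi_PD1neg replicate 1 or 3 (up to 0.176). That of Gsta4 ended without any SiaLo_PD1pos replicate, SiaHi_PD1pos replicate 1 or 3 or SiaHi_PD1neg replicate 3 (up to 0.157). That of Scn8a ended without any SiaLo_PD1pos replicate, SiaHi_PD1pos replicate 2 or 3 or SiaHi_PD1neg replicate 1 or 3 (up to 0.228). In the fit of only the 6 libraries Scn8a and Cpe were at adjusted p values of 0.0596 and 0.0546, and under T cell core scaling Fkbp9 and Enpp5 kept their calls.

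**Figure D3:**
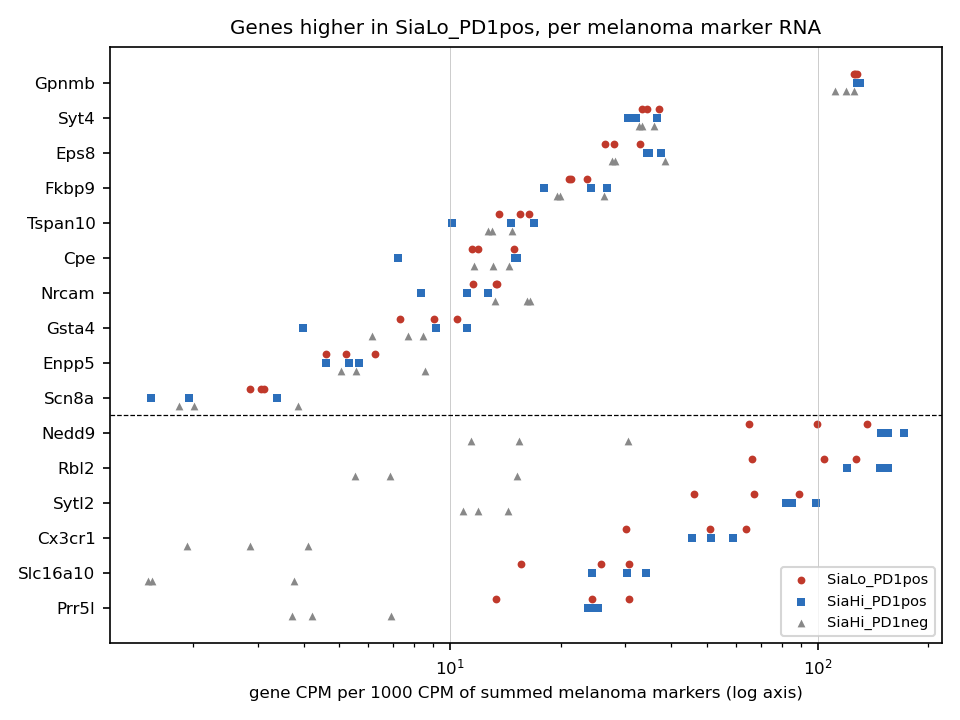
CPM of genes called higher in SiaLo_PD1pos per 1000 CPM of summed melanoma markers (log axis), 1 point per library, with SiaLo_PD1pos as circles, SiaHi_PD1pos as squares and SiaHi_PD1neg as triangles. Above the dashed line the 3 groups lie together for the 10 fixed-ratio genes drawn; below it, for 6 other genes, the SiaHi_PD1neg libraries fall far to the left.

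Promoter sequences were read for these genes because melanocyte genes share a known element. MITF, the master transcription factor of melanocytes, binds E-boxes such as TCATGTG, called the M-box. The windows are from RefSeq on GRCm38.p6 and run from 250 bases before to 50 bases after a transcript start. On either strand TCATGTG was found in 1239 of 32851 windows (3.77%). It was found for 6 of 8 melanoma marker genes with a window (Dct, Mc1r, Slc24a5, Trpm1, Tyr and Tyrp1), for 1 of 5 fixed-ratio genes with a window (Tspan10) and for 0 of 12 of the other higher genes with a window. A gene can have more than 1 window. Counted by window, as the 3.77% is, these were 6 of 11, 1 of 6 and 0 of 18. Lower genes at least 2 times as high in SiaHi_PD1neg as in SiaHi_PD1pos held TCATGTG for 3 of 43 genes with a window (Cbfa2t3, Csf2rb2 and Rasgef1b). By window that was 3 of 59, and for the other lower genes 0 of 26. In all, 10 motifs were searched on both strands, chosen with results of these data known, and a longer motif that contains a shorter one counts for both. Of all windows, 14.2% held CATGTG, 3.77% held TCATGTG, 7.15% held CACGTG, 3.77% held TCACGTG and 16% held CTTTGA. Further, 3.73% held CTTTGAT, 18.7% held CTTTGT, 5.20% held TGACTCA, 11% held GGAAGTG and 3.62% held TGACATCA. A match is a description of the letters only. The windows of Tyr, Tyrp1, Dct and Tspan10 are shown 5′ to 3′ with TCATGTG, or its reverse complement CACATGA, in capitals. Tyr lies at chr7:87493463-87493762 on the minus strand, Tyrp1 at chr4:80833963-80834262 on the plus strand, Dct at chr14:118052197-118052496 on the minus strand and Tspan10 at chr11:120442381-120442680 on the plus strand.
Tyr: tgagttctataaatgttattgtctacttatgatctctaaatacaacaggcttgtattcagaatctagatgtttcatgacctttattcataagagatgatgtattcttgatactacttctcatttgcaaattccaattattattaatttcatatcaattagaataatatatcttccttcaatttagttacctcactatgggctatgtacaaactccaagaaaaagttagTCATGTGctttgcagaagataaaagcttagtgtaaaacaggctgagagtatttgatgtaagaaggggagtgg
Tyrp1: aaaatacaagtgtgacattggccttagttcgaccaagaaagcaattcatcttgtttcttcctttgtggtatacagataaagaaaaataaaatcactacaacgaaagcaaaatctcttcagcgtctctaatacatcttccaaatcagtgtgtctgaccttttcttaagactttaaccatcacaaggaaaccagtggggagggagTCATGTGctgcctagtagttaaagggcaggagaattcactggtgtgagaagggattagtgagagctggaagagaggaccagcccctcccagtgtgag
Dct: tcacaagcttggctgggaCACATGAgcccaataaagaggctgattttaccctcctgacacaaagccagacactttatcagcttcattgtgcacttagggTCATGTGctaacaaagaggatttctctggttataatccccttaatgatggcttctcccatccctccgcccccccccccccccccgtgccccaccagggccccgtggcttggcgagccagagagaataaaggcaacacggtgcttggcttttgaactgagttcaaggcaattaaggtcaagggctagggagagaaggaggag
Tspan10: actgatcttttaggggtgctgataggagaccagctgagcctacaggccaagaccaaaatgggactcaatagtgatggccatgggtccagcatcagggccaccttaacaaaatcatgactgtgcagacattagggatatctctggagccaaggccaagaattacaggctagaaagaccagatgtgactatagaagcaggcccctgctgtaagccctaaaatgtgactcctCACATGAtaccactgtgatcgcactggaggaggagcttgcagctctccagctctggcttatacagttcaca
Relative to the start site the matches begin at -22 in Tyr, -47 in Tyrp1, -232 and -151 in Dct and -21 in Tspan10. Tspan10, a tetraspanin, was at 36.3, 23.3 and 53.7 CPM in SiaLo_PD1pos, against 16.1, 13.1 and 10.4 CPM in SiaHi_PD1pos (log2 fold change 1.52, SE 0.33, adjusted p = 0.0376), and per 1000 CPM of melanoma markers at 15.4 in SiaLo_PD1pos, 13.8 in SiaHi_PD1pos and 13.5 in SiaHi_PD1neg. Its call ended without SiaLo_PD1pos replicate 1 or 3, any SiaHi_PD1pos replicate or SiaHi_PD1neg replicate 1 or 3 (adjusted p up to 0.158).

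A further 2 of the 25 higher genes were also richest in SiaHi_PD1neg but did not keep the melanoma ratio. Tlcd4, a membrane protein with a TLC lipid-sensing domain, had the largest increase outside the lists: it was at 5.7, 3.76 and 5.97 CPM in SiaLo_PD1pos, against 1.05, 0.315 and 0.393 CPM in SiaHi_PD1pos (log2 fold change 3.10, SE 0.56, adjusted p = 0.0143). SiaHi_PD1neg held 14.6, 7.83 and 25 CPM. Its SiaHi_PD1pos values rest on few reads, and its call ended without SiaHi_PD1pos replicate 3 (adjusted p up to 0.0658). Epm2a, the glycogen phosphatase laforin, was at 2.95, 3.25 and 2.59 CPM in SiaLo_PD1pos, against 0.599, 0.866 and 0.393 CPM in SiaHi_PD1pos (log2 fold change 2.23, SE 0.48, adjusted p = 0.0376) and was named after its values were seen. Its call ended without any SiaLo_PD1pos replicate, SiaHi_PD1pos replicate 1 or 3 or SiaHi_PD1neg replicate 3 (up to 0.139) and in the fit of only the 6 libraries (0.0657). Per 1000 CPM of melanoma markers Tlcd4 was at 2.09 in SiaLo_PD1pos, 0.613 in SiaHi_PD1pos and 2.31 in SiaHi_PD1neg, and Epm2a at 1.19 in SiaLo_PD1pos, 0.649 in SiaHi_PD1pos and 1.36 in SiaHi_PD1neg.

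**Figure D4:**
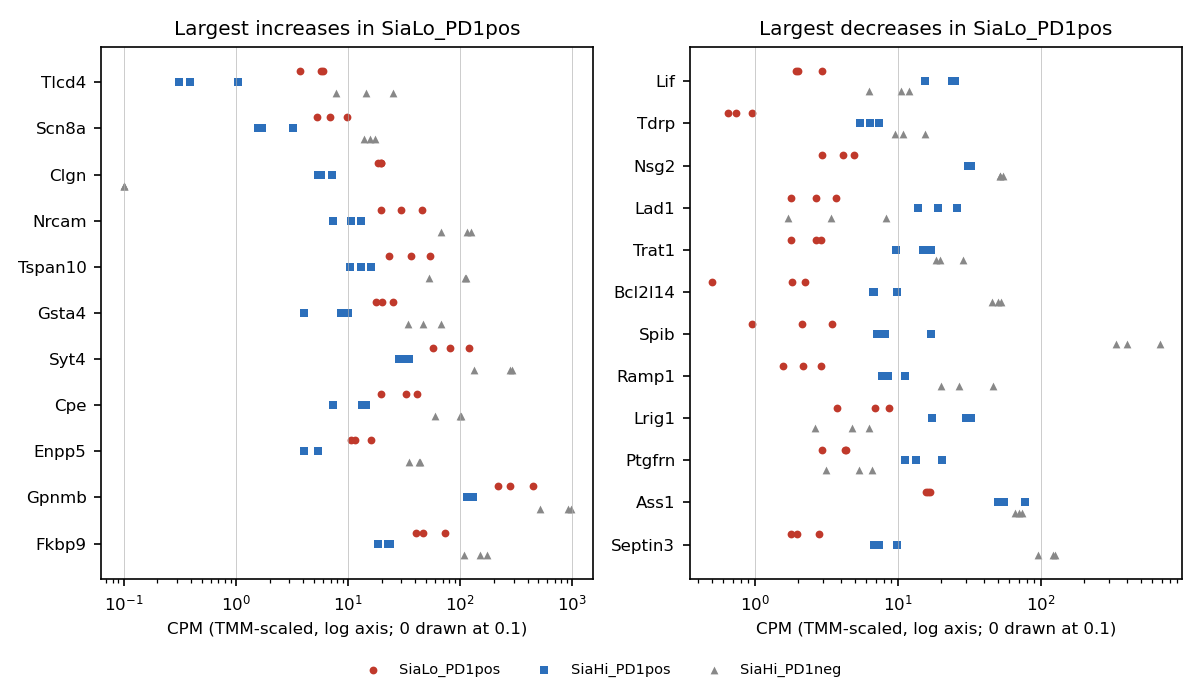
CPM (TMM-scaled, log axis) in each library of 11 of the 12 genes with the largest increases (left) and the 12 with the largest decreases (right) outside the T cell and marker lists, with SiaLo_PD1pos as circles, SiaHi_PD1pos as squares and SiaHi_PD1neg as triangles. The PD-1-positive groups do not overlap for any gene shown, and on the left Clgn, at 0 in all 3 SiaHi_PD1neg libraries, is the exception to a pattern in which SiaHi_PD1neg is highest.

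The other 12 higher genes behaved differently from melanoma RNA, being lower in SiaHi_PD1neg than in SiaHi_PD1pos (9 genes) or at most 2 times as high (Nedd4, Slc37a2 and Prr5l). Clgn, calmegin, an endoplasmic reticulum chaperone best known from the testis, was at 19.8, 18.5 and 19.7 CPM in SiaLo_PD1pos, against 7.19, 5.43 and 5.74 CPM in SiaHi_PD1pos (log2 fold change 1.66, SE 0.31, adjusted p = 0.0243). In SiaHi_PD1neg it had 0 reads in each library, which allows at most 0.218 to 0.294 CPM by counting error. Its call ended without any SiaLo_PD1pos replicate or any SiaHi_PD1pos replicate (adjusted p up to 0.161) and under T cell core scaling (0.169). Slc16a10, the aromatic amino acid transporter TAT1, was at 56.8, 52.8 and 53.8 CPM in SiaLo_PD1pos, against 28.8, 30.3 and 24.9 CPM in SiaHi_PD1pos (log2 fold change 0.96, SE 0.17, adjusted p = 0.0135). SiaHi_PD1neg held 13.5, 15.4 and 11.6 CPM. Its call held under T cell core scaling (adjusted p = 0.0441) and ended without any SiaLo_PD1pos replicate or SiaHi_PD1pos replicate 1 or 3 (up to 0.0927). Slc37a2, a sugar phosphate exchanger of the endoplasmic reticulum, was at 69.3, 70.2 and 63.3 CPM in SiaLo_PD1pos, against 40.2, 35.5 and 39.5 CPM in SiaHi_PD1pos (log2 fold change 0.82, SE 0.14, adjusted p = 0.0106). SiaHi_PD1neg held 52.5, 61.8 and 62.6 CPM. Its call ended without SiaLo_PD1pos replicate 1 or 2 (up to 0.0672) and under T cell core scaling (0.0871). Of 234 solute carriers tested, these 2 rose (0.855%, beside 0.268% higher and 1.13% lower over all tested genes) and none fell in edgeR. In this family 8 genes were higher and 14 lower at an unadjusted p under 0.05, beside 505 higher and 819 lower of all 15292 tested genes. DESeq2 called 4 of the family higher and 3 lower, and limma-voom 9 higher and 14 lower.

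The calls of Prr5l and Cx3cr1, named after their values were seen, held in all 9 fits that left out 1 library, in the fit of only the 6 libraries and under T cell core scaling. Prr5l, a protein bound to the mTORC2 kinase complex, was at 53.8, 52.9 and 46.2 CPM in SiaLo_PD1pos, against 24, 21.8 and 24.4 CPM in SiaHi_PD1pos (log2 fold change 1.12, SE 0.16, adjusted p = 0.00288). SiaHi_PD1neg held 32.4, 28.3 and 32.3 CPM. Cx3cr1, the fractalkine receptor, was at 113, 110.0 and 104 CPM in SiaLo_PD1pos, against 48.7, 52.3 and 46.7 CPM in SiaHi_PD1pos (log2 fold change 1.14, SE 0.18, adjusted p = 0.00478). SiaHi_PD1neg held 24.8, 16.9 and 14.8 CPM. It is also a known gene of effector CD8 T cells that the list of usual genes missed. All 3 SiaLo_PD1pos libraries lay above all 3 SiaHi_PD1pos libraries in both genes.

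Smaller increases were those of Arsb, Rbl2 and Nedd9, all lower in SiaHi_PD1neg. Arsb, the lysosomal sulfatase arylsulfatase B, was at 278, 311 and 276 CPM in SiaLo_PD1pos, against 181, 165 and 179 CPM in SiaHi_PD1pos (log2 fold change 0.72, SE 0.16, adjusted p = 0.0403). SiaHi_PD1neg held 137, 94.3 and 87.3 CPM. Rbl2, the pocket protein p130, which with E2F4 holds cells out of the cycle, was at 230.3, 219 and 229 CPM in SiaLo_PD1pos, against 148, 107 and 152 CPM in SiaHi_PD1pos (log2 fold change 0.74, SE 0.17, adjusted p = 0.0464). SiaHi_PD1neg held 60.05, 62.1 and 42.4 CPM. Nedd9, an adhesion scaffold of the Cas family, was at 221, 234 and 225 CPM in SiaLo_PD1pos, against 163, 132 and 159 CPM in SiaHi_PD1pos (log2 fold change 0.58, SE 0.13, adjusted p = 0.0446). SiaHi_PD1neg held 99.2, 125 and 119 CPM. In all 3 genes SiaLo_PD1pos was the highest group and SiaHi_PD1neg the lowest, and the libraries of the PD-1-positive groups did not overlap. Sytl2, a Rab27 effector of granule exocytosis, was at 149, 153 and 159 CPM in SiaLo_PD1pos, against 94, 72.8 and 87.3 CPM in SiaHi_PD1pos (log2 fold change 0.86, SE 0.17, adjusted p = 0.0262). Rexo5, an RNA exonuclease, was at 59.2, 57.7 and 55.8 CPM in SiaLo_PD1pos, against 37.5, 29.99 and 30.2 CPM in SiaHi_PD1pos (log2 fold change 0.82, SE 0.18, adjusted p = 0.042). Tmem135, a multi-pass membrane protein, was at 74, 69.8 and 69.97 CPM in SiaLo_PD1pos, against 46, 47.6 and 39.3 CPM in SiaHi_PD1pos (log2 fold change 0.68, SE 0.14, adjusted p = 0.0282), again with every SiaLo_PD1pos library on top. Nedd4, a ubiquitin ligase, was at 195, 202 and 210.2 CPM in SiaLo_PD1pos, against 111, 97.9 and 141 CPM in SiaHi_PD1pos (log2 fold change 0.79, SE 0.16, adjusted p = 0.024). The last 4 were named after their values were seen. Calls of all 7 were lost under T cell core scaling, at adjusted p values of 0.113 (Tmem135) to 0.35 (Nedd9). That of Arsb also ended without any SiaLo_PD1pos replicate or any SiaHi_PD1pos replicate (adjusted p up to 0.167). That of Rbl2 ended without any SiaLo_PD1pos replicate, any SiaHi_PD1pos replicate or SiaHi_PD1neg replicate 1 (up to 0.166). That of Nedd9 ended without any SiaLo_PD1pos replicate, any SiaHi_PD1pos replicate or SiaHi_PD1neg replicate 3 (up to 0.197). That of Sytl2 ended without any SiaLo_PD1pos replicate or any SiaHi_PD1pos replicate (up to 0.106). That of Rexo5 ended without any SiaLo_PD1pos replicate or any SiaHi_PD1pos replicate (up to 0.196). That of Tmem135 ended without any SiaLo_PD1pos replicate or SiaHi_PD1pos replicate 1 or 3 (up to 0.176). That of Nedd4 ended without any SiaLo_PD1pos replicate or SiaHi_PD1pos replicate 1 (up to 0.0994).

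How much of each difference other-cell RNA could carry was measured as a ceiling. Suppose that a cell type gives all RNA of a marker list, and gives a gene's RNA in 1 ratio to it in all 3 groups. That ratio then cannot exceed the lowest gene-to-marker ratio seen in any group. Under that assumption, the lowest ratio times the difference in marker sum, as a share of the gene's difference, is the most that this source could add. The largest share over 17 marker lists is given. A share of 1 or more sets no limit below the whole difference. For the 11 fixed-ratio genes the largest share was 0.664 (Scn8a) to 1.19 (Eps8), in each case from the melanoma list. They were chosen for a near-constant ratio to that list, so a high share from it was fixed by the choice. For the other higher genes it was 0 (Clgn), 0.0698 (Cx3cr1), 0.112 (Slc16a10), 0.118 (Rexo5), 0.134 (Rbl2), 0.203 (Tlcd4), 0.207 (Arsb), 0.249 (Prr5l), 0.261 (Sytl2), 0.268 (Tmem135), 0.337 (Nedd9), 0.423 (Epm2a), 0.445 (Slc37a2) and 0.463 (Nedd4). Thus 11 of 25 higher genes reached 0.5, all of them fixed-ratio genes, and 5 stayed under 0.2. Among the 80 lower genes 59 reached 0.5 and 5 stayed under 0.2. A share of 0.5 was also reached by 60.8% of 342 higher and 74.0% of 435 lower genes of at least 5 CPM and 1.5-fold, called or not. The 44.0% of called higher genes and 73.8% of called lower genes were not above that background, but the sets are unlike. The background took in usual T cell genes and held 32 higher and 109 lower called genes itself. The called genes left out usual T cell genes and had no minimum CPM or fold. The ceiling takes 1 list at a time, and a source whose ratio differs between groups is not covered by it. A list can also hold RNA that its named cell type did not give. In SiaLo_PD1pos Pacsin1, which T cells also transcribe, was 50.3 of the 121 CPM of the plasmacytoid dendritic cell list. Il2ra was 75.3 of the 154 CPM of the CD4 and regulatory T cell list. For such lists the share can be understated, so a low share is not a firm limit.

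**Figure D5:**
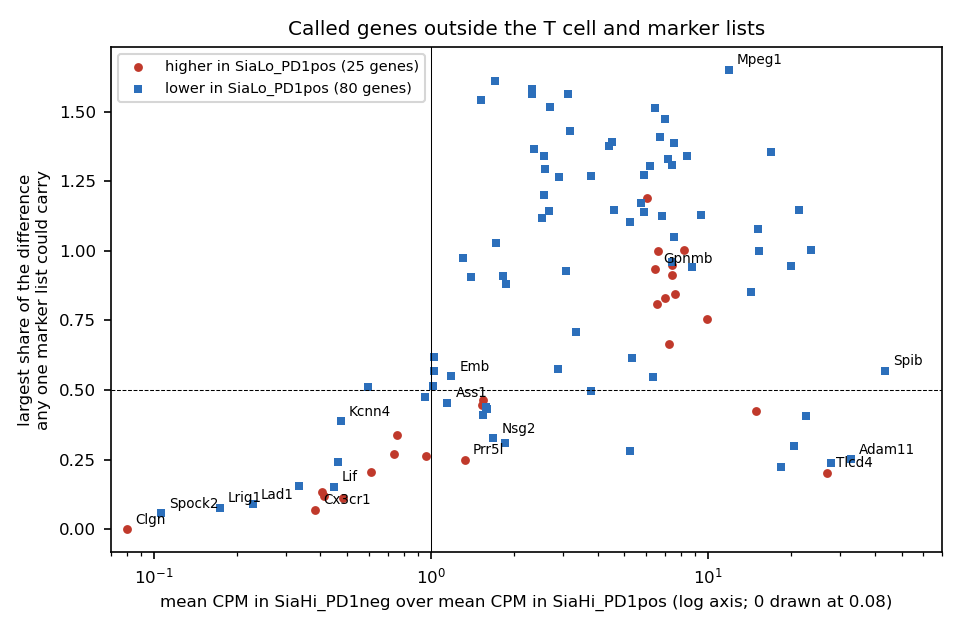
Largest share of the difference between SiaLo_PD1pos and SiaHi_PD1pos that any 1 marker list could carry, if all its RNA came from 1 source, against the mean level in SiaHi_PD1neg over that in SiaHi_PD1pos (log axis), for the 105 called genes outside the lists, with higher genes as circles and lower genes as squares. Genes left of the vertical line at 1 are lower in SiaHi_PD1neg than in SiaHi_PD1pos, and of the 10 genes under 0.2, 5 are higher and 5 lower in SiaLo_PD1pos.

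Of the 80 genes that fell, 9 were also lower in SiaHi_PD1neg than in SiaHi_PD1pos, so that SiaHi_PD1pos was the highest of the 3 groups. Lif, a cytokine of the interleukin-6 family that T cells can secrete, was at 1.94, 2.02 and 2.94 CPM in SiaLo_PD1pos, against 24.9, 15.4 and 24 CPM in SiaHi_PD1pos, a 9.34-fold difference (log2 fold change -3.22, SE 0.35, adjusted p = 0.00032). SiaHi_PD1neg held 10.6, 6.34 and 11.9 CPM. Lad1, ladinin, an anchoring filament protein of basement membranes, was at 2.68, 1.81 and 3.72 CPM in SiaLo_PD1pos, against 25.8, 13.8 and 19.2 CPM in SiaHi_PD1pos (log2 fold change -2.84, SE 0.52, adjusted p = 0.0144). SiaHi_PD1neg held 3.42, 1.72 and 8.25 CPM. Lrig1, a membrane protein that dampens ErbB receptor signalling, was at 6.97, 3.76 and 8.74 CPM in SiaLo_PD1pos, against 29.9, 17.4 and 32.3 CPM in SiaHi_PD1pos (log2 fold change -2.03, SE 0.39, adjusted p = 0.0208). SiaHi_PD1neg held 2.62, 6.34 and 4.81 CPM. For all 3 genes every SiaLo_PD1pos library lay below every SiaHi_PD1pos library. Ptgfrn, an immunoglobulin superfamily partner of tetraspanins, was at 4.36, 4.26 and 2.94 CPM in SiaLo_PD1pos, against 20.2, 13.5 and 11.3 CPM in SiaHi_PD1pos (log2 fold change -1.95, SE 0.38, adjusted p = 0.0226). SiaHi_PD1neg held 5.39, 3.13 and 6.58 CPM. Kcnn4, the calcium-activated potassium channel KCa3.1 that sustains calcium entry in T cells, was at 52.1, 46.9 and 52.9 CPM in SiaLo_PD1pos, against 83.9, 88.4 and 86.3 CPM in SiaHi_PD1pos (log2 fold change -0.77, SE 0.15, adjusted p = 0.0222). SiaHi_PD1neg held 46.6, 33.6 and 42.2 CPM. The largest share of any marker list was 0.0895 for Lad1, 0.0775 for Lrig1, 0.152 for Lif, 0.153 for Ptgfrn and 0.388 for Kcnn4. Each of these shares came from the erythroid and platelet list. That list held 3 tested genes and summed to 5.83, 3.03 and 3.2 CPM in SiaLo_PD1pos, against 5.24, 17.9 and 4.17 CPM in SiaHi_PD1pos. These sums overlapped, and replicate 2 of SiaHi_PD1pos was the highest, so shares from this list are uncertain. Of the called CD4 and regulatory T cell genes, Foxp3, Il2ra and Lrrc32 were likewise highest in SiaHi_PD1pos, and Cd4 was highest in SiaHi_PD1neg. Foxp3 averaged 2.00 CPM in SiaLo_PD1pos, 20.1 CPM in SiaHi_PD1pos and 8.79 CPM in SiaHi_PD1neg. What part regulatory T cell RNA had in these 9 genes was not tested.

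Of the same 9 genes, Spock2, Bicdl1 and Gpm6b, named after their values were seen, showed smaller or sparser decreases. Spock2, a proteoglycan of the testican family, was at 13.2, 7.87 and 14 CPM in SiaLo_PD1pos, against 35, 20.6 and 39.8 CPM in SiaHi_PD1pos (log2 fold change -1.44, SE 0.31, adjusted p = 0.0374). SiaHi_PD1neg held 3.35, 2.61 and 4.22 CPM, and the largest share of a marker list was 0.0571. Bicdl1, a dynein adaptor, was at 10.3, 9.89 and 15 CPM in SiaLo_PD1pos, against 35.3, 26.8 and 38.9 CPM in SiaHi_PD1pos (adjusted p = 0.0185), and Gpm6b, a proteolipid family protein, at 40.2, 43.9 and 33.1 CPM in SiaLo_PD1pos, against 65, 68.9 and 59.6 CPM in SiaHi_PD1pos (adjusted p = 0.0446). In SiaHi_PD1neg Bicdl1 averaged 15.6 CPM and Gpm6b 38.3 CPM, and their largest shares were 0.241 and 0.509. The shares of Spock2, Bicdl1 and Gpm6b all came from the erythroid and platelet list. Lif alone of these 8 genes kept its call without any single library. The call ended for Lad1 without SiaLo_PD1pos replicate 1 or 2 or SiaHi_PD1pos replicate 1 (adjusted p up to 0.0768). That of Lrig1 ended without SiaLo_PD1pos replicate 1 or 2 or SiaHi_PD1pos replicate 1 or 3 (up to 0.0903). That of Ptgfrn ended without any SiaLo_PD1pos replicate or SiaHi_PD1pos replicate 1 (up to 0.137). That of Kcnn4 ended without any SiaLo_PD1pos replicate or SiaHi_PD1pos replicate 1 or 3 (up to 0.131). That of Spock2 ended without any SiaLo_PD1pos replicate, SiaHi_PD1pos replicate 1 or 3 or SiaHi_PD1neg replicate 1 (up to 0.17). That of Bicdl1 ended without SiaLo_PD1pos replicate 1 or 2 or SiaHi_PD1pos replicate 1 or 3 (up to 0.0961). That of Gpm6b ended without any SiaLo_PD1pos replicate, any SiaHi_PD1pos replicate or SiaHi_PD1neg replicate 1 or 3 (up to 0.325). That of Spock2 was also lost under T cell core scaling (adjusted p = 0.0974).

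Another 17 lower genes were 1 to 2 times as high in SiaHi_PD1neg as in SiaHi_PD1pos, and Tiam1, of the 9 above, lay just below that range. Nsg2, a neuronal vesicle protein, was at 4.16, 2.96 and 4.93 CPM in SiaLo_PD1pos, against 32.3, 31.1 and 31.2 CPM in SiaHi_PD1pos, a 7.87-fold difference (log2 fold change -2.98, SE 0.21, adjusted p = 2.26e-05). SiaHi_PD1neg held 52.1, 54.7 and 52 CPM. Trat1, an adaptor that associates with the T cell receptor and is known from T cells although outside the lists, was at 2.88, 1.81 and 2.68 CPM in SiaLo_PD1pos, against 17, 9.76 and 15 CPM in SiaHi_PD1pos (log2 fold change -2.50, SE 0.32, adjusted p = 0.00138). SiaHi_PD1neg held 18.4, 19.8 and 28.4 CPM. Emb, embigin, a partner of monocarboxylate transporters, was at 52.6, 38 and 58.7 CPM in SiaLo_PD1pos, against 155, 126 and 211 CPM in SiaHi_PD1pos (log2 fold change -1.72, SE 0.24, adjusted p = 0.00204). SiaHi_PD1neg held 171, 154 and 260.1 CPM. In all 3 genes every SiaLo_PD1pos library lay below every library of both sialoglycan-high groups. Ass1, argininosuccinate synthase, which makes the precursor of arginine, was at 15.6, 16.8 and 16.2 CPM in SiaLo_PD1pos, against 50.4, 77.8 and 55.2 CPM in SiaHi_PD1pos (log2 fold change -1.92, SE 0.18, adjusted p = 0.000101). SiaHi_PD1neg held 74.1, 66 and 70.4 CPM. Tiam1, an activator of the GTPase Rac, was at 7.38, 6.79 and 9.25 CPM in SiaLo_PD1pos, against 31.4, 17.9 and 24 CPM in SiaHi_PD1pos (log2 fold change -1.65, SE 0.25, adjusted p = 0.00444). SiaHi_PD1neg held 23.7, 21.5 and 25 CPM. Tdrp, first described in testis development, was at 0.738, 0.65 and 0.951 CPM in SiaLo_PD1pos, against 6.44, 7.4 and 5.43 CPM in SiaHi_PD1pos (log2 fold change -3.03, SE 0.40, adjusted p = 0.00162). Tbc1d4, a Rab GTPase activator of glucose transporter traffic named after its values were seen, was at 40.2, 32.9 and 42.5 CPM in SiaLo_PD1pos, against 101, 76.4 and 119 CPM in SiaHi_PD1pos (log2 fold change -1.36, SE 0.19, adjusted p = 0.00204). Each of these 7 calls held when any single library was left out, in the fit of only the 6 libraries and under T cell core scaling. Their largest shares were 0.31 (Tdrp), 0.327 (Nsg2), 0.433 (Trat1), 0.454 (Ass1), 0.476 (Tiam1), 0.549 (Emb) and 0.569 (Tbc1d4). For Tdrp, Nsg2 and Trat1 the share came from the plasma cell list. For Ass1, Tiam1, Emb and Tbc1d4 it came from the erythroid and platelet list, whose sums overlapped between the PD-1-positive groups.

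Smaller or sparser decreases followed the same order of levels. Zfp36l1, an RNA-binding protein that destabilises AU-rich mRNAs, was at 263, 235 and 262 CPM in SiaLo_PD1pos, against 398, 371 and 367 CPM in SiaHi_PD1pos (log2 fold change -0.58, SE 0.13, adjusted p = 0.0431). SiaHi_PD1neg held 515, 674 and 534 CPM. Kbtbd11, a BTB-Kelch protein, was at 42.8, 44.1 and 58.1 CPM in SiaLo_PD1pos, against 94.7, 71.1 and 99.4 CPM in SiaHi_PD1pos (adjusted p = 0.024), and Pla2g4f, a cytosolic phospholipase A2, at 0.604, 0.65 and 0.692 CPM in SiaLo_PD1pos, against 3.67, 3.07 and 5.51 CPM in SiaHi_PD1pos (adjusted p = 0.0204). In SiaHi_PD1neg Kbtbd11 averaged 116 CPM and Pla2g4f 6.29 CPM. The largest share was 0.975 for Kbtbd11, from the erythroid and platelet list, and 0.41 for Pla2g4f, from the plasma cell list. The PD-1-positive groups did not overlap in these genes. The call ended for Zfp36l1 without any SiaLo_PD1pos replicate, SiaHi_PD1pos replicate 1 or 3 or SiaHi_PD1neg replicate 1 or 3 (adjusted p up to 0.267). That of Kbtbd11 ended without SiaLo_PD1pos replicate 1 or 2 or SiaHi_PD1pos replicate 1 or 3 (up to 0.134). That of Pla2g4f ended without any SiaLo_PD1pos replicate or SiaHi_PD1pos replicate 1 or 3 (up to 0.12). That of Kbtbd11 was lost under T cell core scaling (0.0661).

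Promoters of these 26 genes, 21 of which had a window, were read for CTTTGAT, the core of the element bound by TCF-1 and LEF-1, the transcription factors of naive and stem-like T cells. On either strand CTTTGAT was found in 1225 of 32851 windows (3.73%). It was found for 3 of these 21 genes (Trat1, Tiam1 and Emb), for 1 of the 43 other lower genes with a window and for 0 of 12 higher genes outside the fixed-ratio group. A gene can have more than 1 window. Counted by window, as the 3.73% is, these were 3 of 26, 1 of 59 and 0 of 18. The shorter CTTTGA, in 16% of all windows, did not keep that order between the lower genes: it was found for 4 of these 21 genes, for 11 of the 43 other lower genes and for 1 of the 12 higher genes. By window these were 5 of 26, 12 of 59 and 1 of 18. The 3 windows are from RefSeq on GRCm38.p6, with CTTTGAT, or its reverse complement ATCAAAG, in capitals. Trat1 lies at chr16:48772013-48772312 on the minus strand, Tiam1 at chr16:89818303-89818602 on the minus strand and Emb at chr13:117220323-117220622 on the plus strand.
Trat1: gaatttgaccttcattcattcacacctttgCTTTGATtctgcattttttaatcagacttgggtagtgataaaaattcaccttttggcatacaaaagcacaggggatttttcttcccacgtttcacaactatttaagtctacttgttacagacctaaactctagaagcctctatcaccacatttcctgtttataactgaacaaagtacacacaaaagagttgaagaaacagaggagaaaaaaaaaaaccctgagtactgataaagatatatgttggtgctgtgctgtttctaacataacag
Tiam1: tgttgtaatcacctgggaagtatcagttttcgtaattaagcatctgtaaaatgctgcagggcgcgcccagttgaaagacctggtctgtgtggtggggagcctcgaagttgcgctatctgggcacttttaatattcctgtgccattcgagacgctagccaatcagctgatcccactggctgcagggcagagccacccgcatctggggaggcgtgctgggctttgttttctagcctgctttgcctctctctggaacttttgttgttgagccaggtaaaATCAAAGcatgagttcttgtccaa
Emb: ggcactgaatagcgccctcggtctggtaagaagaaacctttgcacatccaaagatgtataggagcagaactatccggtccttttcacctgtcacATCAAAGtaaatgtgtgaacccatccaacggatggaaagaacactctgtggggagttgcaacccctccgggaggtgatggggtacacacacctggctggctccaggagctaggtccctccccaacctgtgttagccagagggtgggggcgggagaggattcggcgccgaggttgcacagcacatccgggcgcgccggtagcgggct
Relative to the start site the match begins at -220 in Trat1, -156 in Emb and 27 in Tiam1. TCATGTG was in none of the windows of these 21 genes.

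The remaining 54 lower genes were at least 2 times as high in SiaHi_PD1neg as in SiaHi_PD1pos, 34 of them at least 5 times. Spib, a transcription factor of plasmacytoid dendritic cells and B cells, was at 2.15, 3.47 and 0.951 CPM in SiaLo_PD1pos, against 8.16, 17.1 and 7.16 CPM in SiaHi_PD1pos (log2 fold change -2.27, SE 0.44, adjusted p = 0.0209). SiaHi_PD1neg held 333, 676 and 399 CPM. Cst3, cystatin C, which dendritic cells make in quantity, was at 202, 182 and 191 CPM in SiaLo_PD1pos, against 305, 588 and 303 CPM in SiaHi_PD1pos (log2 fold change -1.06, SE 0.22, adjusted p = 0.0327). SiaHi_PD1neg held 3327, 2614 and 2655 CPM. Mpeg1, the pore-forming perforin-2 of macrophages and dendritic cells, was at 167, 124 and 124 CPM in SiaLo_PD1pos, against 217, 266 and 232 CPM in SiaHi_PD1pos (log2 fold change -0.78, SE 0.15, adjusted p = 0.0216). SiaHi_PD1neg held 2605, 3187 and 2714 CPM. In these genes SiaHi_PD1pos replicate 2 was the highest of the 6 libraries, as it was for MHC class II RNA. The largest shares were 0.569 for Spib, 1.33 for Cst3 and 1.65 for Mpeg1.

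Further genes of this set included Cd24a, a glycosylphosphatidylinositol-anchored sialoglycoprotein of B cells, dendritic cells and granulocytes, at 11.7, 5.99 and 9.77 CPM in SiaLo_PD1pos, against 23.8, 37.3 and 31.6 CPM in SiaHi_PD1pos (log2 fold change -1.75, SE 0.23, adjusted p = 0.00135). SiaHi_PD1neg held 303, 254 and 258 CPM. Rnase6, a secreted ribonuclease of myeloid cells, was at 6.44, 5.7 and 3.55 CPM in SiaLo_PD1pos, against 12.4, 29.4 and 11 CPM in SiaHi_PD1pos (log2 fold change -1.74, SE 0.36, adjusted p = 0.0299). Bcl2l14, a BCL2 family member, was at 1.81, 0.506 and 2.25 CPM in SiaLo_PD1pos, against 6.66, 9.84 and 6.77 CPM in SiaHi_PD1pos (log2 fold change -2.36, SE 0.38, adjusted p = 0.00651), and Ramp1, a subunit of the CGRP neuropeptide receptor, at 2.88, 1.59 and 2.16 CPM in SiaLo_PD1pos, against 8.61, 7.79 and 11.3 CPM in SiaHi_PD1pos (log2 fold change -2.05, SE 0.36, adjusted p = 0.012). Septin3, a septin known from neurons, was at 2.82, 1.81 and 1.99 CPM in SiaLo_PD1pos, against 9.81, 6.77 and 7.4 CPM in SiaHi_PD1pos (log2 fold change -1.85, SE 0.24, adjusted p = 0.00135). SiaHi_PD1neg held 126, 96.2 and 122 CPM. Adam11, a metalloprotease-like adhesion protein without protease activity, was at 0.335, 0.65 and 0.519 CPM in SiaLo_PD1pos, against 5.02, 5.35 and 4.56 CPM in SiaHi_PD1pos (log2 fold change -3.30, SE 0.35, adjusted p = 0.000244). SiaHi_PD1neg held 109, 203 and 179 CPM. Hepacam2, an immunoglobulin superfamily protein, was at 0.335, 0 and 0.0865 CPM in SiaLo_PD1pos, against 0.973, 1.73 and 1.97 CPM in SiaHi_PD1pos (log2 fold change -3.32, SE 0.66, adjusted p = 0.0252), with a largest share of 0.222. Cd24a, Rnase6 and Hepacam2 were named after their values were seen. For Adam11 the largest share was 0.251, for Bcl2l14 0.547, for Ramp1 0.707, for Septin3 0.853, for Cd24a 0.942 and for Rnase6 0.945.

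Within this set Cd24a, Bcl2l14, Septin3 and Adam11 kept their calls without any single library. The call ended for Spib without SiaLo_PD1pos replicate 1 or 3 or SiaHi_PD1pos replicate 2 (adjusted p up to 0.12). That of Cst3 ended without any SiaLo_PD1pos replicate or any SiaHi_PD1neg replicate (up to 0.14). That of Mpeg1 ended without SiaLo_PD1pos replicate 2 or 3 (up to 0.146). That of Rnase6 ended without any SiaLo_PD1pos replicate, SiaHi_PD1pos replicate 2 or SiaHi_PD1neg replicate 1 (up to 0.128). That of Ramp1 ended without SiaLo_PD1pos replicate 2 or 3 (up to 0.0682). That of Hepacam2 ended without SiaLo_PD1pos replicate 2 or 3 or SiaHi_PD1pos replicate 2 or 3 (up to 0.116). In the fit of only the 6 libraries Cst3, Rnase6 and Hepacam2 were at adjusted p values of 0.0596, 0.0657 and 0.124. Of the 59 lower genes with a largest share of at least 0.5, the plasma cell list gave that share for 44 and the erythroid and platelet list for 15. The erythroid and platelet list rested on few reads, at a mean sum of 4.02 CPM in SiaLo_PD1pos and 9.09 CPM in SiaHi_PD1pos. The plasma cell list summed to 33.5 CPM in SiaLo_PD1pos and 108.6 CPM in SiaHi_PD1pos. With the 6 antigen-presenting lists alone 53 genes reached 0.5, a setting added after the data were seen. Among those 6, the mature dendritic cell list summed to 22.6 CPM in SiaLo_PD1pos and 68.3 CPM in SiaHi_PD1pos.

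Families of related proteins were grouped by symbol, and each held few calls, beside 1.4% called over all tested genes. Of 78 ion channel genes Scn8a rose and Kcnn4 and Cacnb3 fell. Cacnb3, a calcium channel β subunit that is also a mature dendritic cell marker, was at 4.22, 3.03 and 6.49 CPM in SiaLo_PD1pos, against 9.88, 15.4 and 16.3 CPM in SiaHi_PD1pos (adjusted p = 0.0144). Of 49 regulators of Ras and Rap, Rasgrp4, Rassf4 and Rasgef1b fell. Fgd2, a Cdc42 activator of antigen-presenting cells, was at 14.2, 12.8 and 9.6 CPM in SiaLo_PD1pos, against 22.1, 35 and 20.6 CPM in SiaHi_PD1pos (adjusted p = 0.0222). SiaHi_PD1neg held 189, 179 and 207 CPM. Rasgrp4, a Ras activator known from mast cells, was at 2.88, 3.11 and 2.34 CPM in SiaLo_PD1pos, against 7.64, 11.7 and 9.13 CPM in SiaHi_PD1pos (adjusted p = 0.0075), and Rassf4 at 16.6, 14.9 and 13.8 CPM in SiaLo_PD1pos, against 24, 27.9 and 38.1 CPM in SiaHi_PD1pos (adjusted p = 0.0134). Of 102 adhesion genes Nrcam and Tspan10 rose and Lrrc32 fell, of 90 matrix genes Adam11 and Adamtsl2 fell, and of 73 actin and septin genes Septin3 fell. Of 106 G protein-coupled receptors Adgrg1 rose and S1pr1 and Gpr141b fell. Gpr141b, an orphan receptor, was at 0.604, 0.433 and 0.432 CPM in SiaLo_PD1pos, against 3.29, 3.38 and 2.91 CPM in SiaHi_PD1pos (adjusted p = 0.000183), and Adamtsl2, a matrix protein, at 0.604, 0.578 and 0.605 CPM in SiaLo_PD1pos, against 3.14, 4.01 and 2.68 CPM in SiaHi_PD1pos (adjusted p = 0.0297). In SiaHi_PD1neg Rasgrp4 averaged 29.2 CPM, Rassf4 135 CPM, Gpr141b 72.4 CPM and Adamtsl2 12.4 CPM. Shares called were 1.37% of actin and septin genes, 2.22% of matrix genes, 2.83% of G protein-coupled receptors, 2.94% of adhesion genes, 3.85% of ion channels and 6.12% of Ras and Rap regulators. Each rests on 1 to 3 genes, and nothing is read from these shares. These decreases were in genes richer in SiaHi_PD1neg than in both PD-1-positive groups, except for Kcnn4 and Lrrc32.

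Enzyme and regulator families held shares of calls near that of all tested genes or below it: 0.482% of zinc finger genes, 1.75% of ubiquitin ligase genes, 1.94% of homeobox, SOX and related factors, 2.04% of redox enzymes and 2.08% of lipid enzymes, beside 1.4%. Of 96 genes of phospholipid and sphingolipid metabolism Pla2g4f and Plbd1 fell, Plbd1, a lysosomal phospholipase-like protein, being at 46.5, 46.1 and 34.1 CPM in SiaLo_PD1pos, against 67.1, 114 and 71.8 CPM in SiaHi_PD1pos (adjusted p = 0.0262). Of 98 glutathione and redox enzymes Gsta4 rose and Cyp27a1 fell. Cyp27a1, the mitochondrial sterol 27-hydroxylase, was at 4.56, 4.55 and 3.03 CPM in SiaLo_PD1pos, against 6.89, 14.2 and 10.4 CPM in SiaHi_PD1pos (adjusted p = 0.0226). Of 228 ubiquitin ligase genes Nedd4 rose and Rnf19b, Kbtbd11 and Marchf1 fell. Rnf19b, a RING-between-RING ligase, was at 42.1, 43.5 and 48.8 CPM in SiaLo_PD1pos, against 72.1, 88.8 and 79.8 CPM in SiaHi_PD1pos (adjusted p = 0.00493), and of 415 zinc finger genes Zfp36l1 and Zfp710 fell, Zfp710 being at 9.39, 8.38 and 10.2 CPM in SiaLo_PD1pos, against 16.8, 20.8 and 19 CPM in SiaHi_PD1pos (adjusted p = 0.0228). Of 103 homeobox, SOX and related factors, the T cell genes Tcf7 and Klf2 fell. The 4 families of motor proteins (90 genes), semaphorins and ephrins (38), phosphodiesterases and cyclases (30) and Wnt and Notch genes (46) had 0 calls in edgeR. At an unadjusted p under 0.05, 10 motor protein genes were higher and 1 lower, 2 semaphorin and ephrin genes higher and 3 lower, 3 phosphodiesterases higher and 4 lower, and 3 Wnt and Notch genes higher. Over all 15292 tested genes 505 were higher and 819 lower at that threshold. DESeq2 called 1 motor protein gene higher, and 1 semaphorin or ephrin gene higher and 2 lower. The limma-voom fit called 6 motor protein genes higher and 2 lower, 2 semaphorin and ephrin genes higher and 3 lower, 1 phosphodiesterase or cyclase gene higher and 2 lower, and 3 Wnt and Notch genes higher and 1 lower. In SiaHi_PD1neg Plbd1 averaged 636 CPM, Cyp27a1 72 CPM, Rnf19b 251 CPM and Zfp710 47.7 CPM, and their largest shares were all at least 1. The call of Cacnb3 ended without SiaLo_PD1pos replicate 1 or 2 or SiaHi_PD1pos replicate 3 (adjusted p up to 0.0706). That of Fgd2 ended without SiaLo_PD1pos replicate 2 or 3 (up to 0.12). That of Rassf4 ended without SiaLo_PD1pos replicate 2 or 3 (up to 0.086). That of Adamtsl2 ended without any SiaLo_PD1pos replicate or SiaHi_PD1pos replicate 1 or 2 (up to 0.133). That of Plbd1 ended without any SiaLo_PD1pos replicate or SiaHi_PD1neg replicate 3 (up to 0.14). That of Cyp27a1 ended without any SiaLo_PD1pos replicate or SiaHi_PD1pos replicate 2 or 3 (up to 0.123). That of Zfp710 ended without any SiaLo_PD1pos replicate or SiaHi_PD1pos replicate 2 or 3 (up to 0.134). In the fit of only the 6 libraries Fgd2, Plbd1 and Cyp27a1 were at 0.0629, 0.0532 and 0.0777. Calls of Rasgrp4, Gpr141b and Rnf19b held without any single library.

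The edge of the threshold is shown by the genes on either side of it. Just inside were Nedd9 and Rbl2 among higher genes (adjusted p = 0.0446 and 0.0464) and, among lower genes, Map3k8, the kinase TPL2, at 33.4 CPM in SiaLo_PD1pos and 52 CPM in SiaHi_PD1pos (adjusted p = 0.0484) and Marchf1, a ubiquitin ligase of MHC class II, at 6.35 CPM in SiaLo_PD1pos and 14 CPM in SiaHi_PD1pos (adjusted p = 0.0493). Just outside were Lrrk1, a kinase, at 70.6 CPM in SiaLo_PD1pos and 44.9 CPM in SiaHi_PD1pos (adjusted p = 0.0537), S100b, a calcium-binding protein of melanocytes and glia, at 23.4 CPM in SiaLo_PD1pos and 8.21 CPM in SiaHi_PD1pos (adjusted p = 0.0562), the interferon-induced gene Ifi207 at 20.1 CPM in SiaLo_PD1pos and 30.1 CPM in SiaHi_PD1pos (adjusted p = 0.0511), and Cldn1, a tight junction protein, at 0.227 CPM in SiaLo_PD1pos and 1.6 CPM in SiaHi_PD1pos (adjusted p = 0.051). The call of Map3k8 ended without any SiaLo_PD1pos replicate, any SiaHi_PD1pos replicate or SiaHi_PD1neg replicate 3 (up to 0.272), and that of Marchf1 without any SiaLo_PD1pos replicate, SiaHi_PD1pos replicate 2 or 3 or any SiaHi_PD1neg replicate (up to 0.23) and in the fit of only the 6 libraries (0.0856).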

How the data were processed

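The authors deposited 1 table of raw counts per gene for 9 libraries of polyadenylated RNA from sorted intratumoral CD8 T cells. Per the submitters' processing notes, reads were handled with Trim Galore 0.6.5, STAR 2.7.6a and featureCounts 1.6.3 on GRCm38. No source used here gives the annotation, strandedness or treatment of multimapping reads, so genes that share reads with close relatives are uncertain. No molecular identifiers are described, so counting limits cover counting error only. Totals per library were 9714020 to 15030442 counts.

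Genes were kept with filterByExpr (15292 of 56860), scaled with TMM factors of 0.928 to 1.05 and tested in 1 fit of all 9 libraries with edgeR's quasi-likelihood F test, robust, with 6 residual degrees of freedom (edgeR 4.0.16, limma 3.58.1, R 4.3.3). Calls were made at an adjusted p under 0.05, with Benjamini-Hochberg adjustment over every tested gene. Standard errors are the log2 fold change over the square root of F. The script was tested on simulated data. Alternatives were DESeq2 1.42.0, limma-voom, other scalings and filters, only the 6 libraries, a replicate block and leaving out each library.

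Genes in lists of usual T cell genes, in 18 marker lists or with symbols of gene models, segments, ribosomal or mitochondrial genes were set aside. The genes named were St6gal1 and Pdcd1; the 12 highest and 12 lowest log2 fold changes outside the lists with a mean of at least 5 CPM and no overlap; the 4 most abundant called genes in each direction; the most abundant and the most significant member of each marker list; up to 2 called members of each of 17 symbol families; and the 2 genes on either side of the threshold in each direction. Other genes were named after their values were seen, and the text says so or gives a count they belong to. Some genes and 1 family covered by it are not reported here. The members and lists were chosen with earlier results of these data known. Promoter windows were taken from RefSeq tables on GRCm38.p6. The build behind the deposited coordinates is not named, so none are printed.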

Additional observations from a re-analysis of the deposited data

How the results depend on the processing

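Counts of higher and lower genes depended on the processing more than single values did. Over all tested genes the counts were 41 higher and 173 lower, and outside the lists 25 and 80. Without a filter on low counts they were 187 and 348 (outside 131 and 188), with DESeq2 126 and 340 (outside 91 and 200). With limma-voom they were 529 and 733 (outside 406 and 538). T cell core scaling gave 11 and 205 (outside 8 and 111), only the 6 libraries 71 and 155 (outside 44 and 74), and a 2-fold minimum 23 and 145 (outside 16 and 60). Leaving out 1 library gave 14 to 66 higher and 81 to 166 lower, and outside the lists 6 to 43 and 29 to 78; the libraries that moved these counts are named in the text above. The replicate block gave 65 higher and 199 lower (outside 40 and 103). Deviations of same-numbered libraries correlated at 0.062, 0.118 and 0.101 between the PD-1-positive groups, so not every pair passed 0.1; each of the 6 libraries did correlate best with its own number there, a hint from the data and not the design. Under the block the calls of Map3k8, Marchf1 and Epm2a ended. Without composition scaling those of Nedd9, Rbl2, Kbtbd11, Map3k8 and Spock2 ended, and with limma-voom those of Tspan10, Marchf1 and Hepacam2. All 80 lower and 25 higher genes outside the lists were also called by DESeq2, 76 and 24 by limma-voom. The log2 fold changes that changed sign were all of uncalled genes: Apoe reached 0.074 with limma-voom (range -0.37 to 0.027 without single libraries), Fcer1g 0.037 with limma-voom (-0.46 to 0.084), Col3a1 ranged over -0.41 to 0.049, Sfn was -0.067 under T cell core scaling (-0.098 to 0.19), and Fabp4 was 0.0069 without composition scaling, 0.021 without the filter and 0.15 with limma-voom (-0.13 to 0.24). The cause was not tested. A share of at least 0.5 was reached by 9 to 12 of 25 higher and 51 to 57 of 80 lower genes with T cell core scaling or the lowest library ratio, and by 0 and 53 with the 6 antigen-presenting lists alone, an alternative added after the data were seen. Groups of 3 libraries and CPM near the floor of 3 reads (0.201 to 0.294 CPM) limit what can be said of sparse genes such as Tlcd4, Tdrp and Hepacam2.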

Other observations

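Gene models, receptor and immunoglobulin segments, ribosomal and mitochondrial genes in no list were set aside from the account above, and 13 of 2405 were called. Of these, 3 were higher in SiaLo_PD1pos. 2900026A02Rik averaged 91.3 CPM in SiaLo_PD1pos, 44.03 CPM in SiaHi_PD1pos and 4.69 CPM in SiaHi_PD1neg (log2 fold change 1.05, SE 0.16, adjusted p = 0.00464). Gm36723 averaged 92.1 CPM in SiaLo_PD1pos, 41.9 CPM in SiaHi_PD1pos and 24.1 CPM in SiaHi_PD1neg (adjusted p = 0.00714). Gm16242 averaged 28.4 CPM in SiaLo_PD1pos and 10.8 CPM in SiaHi_PD1pos and had 0 reads in SiaHi_PD1neg (adjusted p = 0.0375). These 3 had the order of levels seen for Clgn, and their symbols carry no function in the tables used. Among the 10 lower ones was Gm2a, which despite its symbol encodes the GM2 ganglioside activator of lysosomes. It averaged 89.4 CPM in SiaLo_PD1pos, 171.7 CPM in SiaHi_PD1pos and 681 CPM in SiaHi_PD1neg (log2 fold change -0.94, SE 0.15, adjusted p = 0.00761). Immunoglobulin segments Iglv1, Iglc3 and Ighj1 were also lower, with at most 0.217 CPM in any SiaLo_PD1pos library.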
